A study of Homo sapiens with 18 samples.

Results

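The tumor necrosis factor (TNF) superfamily was followed through 10 genes, 6 ligands (TNF, LTA, LTB, TNFSF9, TNFSF10 and TNFSF15) and 4 receptors (TNFRSF1A, TNFRSF1B, TNFRSF9 and TNFRSF12A), which were found by their names among the probes of the array. These are 10 of the 30484 gene names on the array and had 14 of its 41000 distinct probes, and each probe is described separately. RNA came from A549 cells, a human lung adenocarcinoma line with features of the alveolar epithelium, and was hybridised to 18 one-color Agilent arrays, 3 in each of 6 groups. Cells were incubated for 2 h with Ludox colloidal amorphous silica nanoparticles (NPs) in medium without serum and then left to recover in complete medium. One pair of groups had SM30 NPs (9 nm) and 3 h of recovery, the second had AS30 NPs (18 nm) and 3 h, and the third had AS30 NPs and 22 h, each with its own untreated controls that went through the same change of medium. All 18 samples are thus of 1 tumor line, and the controls had the serum-free incubation too.

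Ligands of this superfamily are mostly membrane proteins that act as trimers, and some, TNF among them, are also shed in soluble form. Their receptors carry either a death domain, which recruits adaptors such as TRADD and FADD, or motifs that bind TRAF proteins, and signal to NF-kB, to MAP kinases or to caspases. TNF and LTA bind TNFRSF1A, which most cells carry, and TNFRSF1B, which is best known from leukocytes and endothelium, and LTB anchors lymphotoxin at the cell surface. TNFSF9 is the ligand of TNFRSF9 (CD137), a costimulatory receptor of activated T cells, TNFSF10 (TRAIL) can start apoptosis through its death receptors, TNFSF15 (TL1A) acts on T cells, and TNFRSF12A (Fn14) is the receptor of TWEAK. In the lung epithelium, TNF is one of the early signals that raise chemokines and adhesion molecules.

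Values are log2 of the normalised signal of a probe, so a difference of 1 is a doubling of the signal, and the levels of different probes cannot be set against each other. Responses are means of up to 3 log2 ratios, each a treated array over the control array with the same letter, with the standard error (SE) and a p-value adjusted over all probes tested with limma. A response was called at an adjusted p under 0.05. A spot is called well above background when the scanner software marks its signal as clear of the local background, and a spot that it did not mark as positive and significant was set missing. A probe on 10 spots was taken as well above background when at least 50% of its spots were. The replicates are described as biological, but p-values measure only the spread among these samples, 3 per group. That spread was estimated from the 9 ratios of all 3 comparisons together, so each p-value depends on the other sets too.

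Between 51.9% and 72.4% of spots were well above background per array, and no spot was saturated. The 18 arrays lay on 5 slides, and for AS30 NPs at 3 h the treated and control arrays were on different slides. These slides were linked only by 1 untreated array of 22 h on each, so that a fit with slide in the model rests on those arrays there. In the SM30 set, treated arrays B and C were on a slide without controls. At 22 h, controls A and B were on slides without treated arrays of that time. The 7 epithelial and A549 markers measured, such as KRT8 and KRT18, were well above background on all 18 arrays, whereas the markers of other cell types were mixed. Of the 7 leukocyte markers, CD3E, CD14, CD68 and FCER1G were well above background on all 18 arrays, LYZ on 6, and PTPRC and MS4A1 on 0. Of the 5 fibroblast markers, COL1A1 was so on 18 arrays, LUM on 6, DCN on 1, and COL1A2 and COL3A1 on 0, and of the 3 endothelial markers VWF was so on 7, CDH5 on 1 and PECAM1 on 0. The summed linear signal of the leukocyte markers was 1459 to 1504 in the controls of SM30 and 1593 to 1766 after SM30 NPs, and 1898 to 2864 in the controls of AS30 at 3 h and 2734 to 3039 after AS30 NPs. At 22 h it was 2200 to 2542 in the controls and 2529 to 4426 after AS30 NPs. That of the fibroblast markers was 157.7 to 203.1 and 215.6 to 242.3 in the SM30 set and 159.3 to 211.5 and 238.1 to 351.7 in the AS30 set at 3 h, controls first, and at 22 h it was 135.9 to 362.9 in the controls and 95.7 to 161.2 after AS30 NPs. That of the endothelial markers was 28.92 to 43.38 and 29.07 to 38.75 in the SM30 set, 27.69 to 33.29 and 34.07 to 37.79 in the AS30 set at 3 h, and 22.8 to 29.96 and 28.74 to 39.81 at 22 h, so that for this list the groups did not overlap in the AS30 set at 3 h and overlapped in the other sets. The part of these differences in the responses below was not tested.

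The probes of LTA, TNF and LTB lay together on chromosome 6 within 7375 bases (hg18, the build of the array annotation), and the TNF probes were 613 bases apart. The TNF probe present on 1 spot covered chr6:31653816-31653875, and the TNF probe present on 10 spots covered chr6:31653143-31653202, both on the plus strand. LTA was read at chr6:31649133-31649192 on the plus strand and LTB at chr6:31656448-31656507 on the minus strand. The TNFRSF9 probe was at chr1:7903310-7903369 on the minus strand. Probes are 60 bases long, and their place in exons or untranslated regions was not analysed here.

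The stretches before the annotated starts of TNF, TNFRSF9 and LTB are shown because the first pair were the members with called responses and LTB was the member whose level in untreated cells differed most between recovery times. They were taken from RefSeq (GRCh38.p14), where 9 of the 10 genes had an entry, and each holds 250 bases up to the start, read 5′ to 3′ on the strand of the gene. Capitals mark matches, on either strand, to the NF-kB consensus by name, to TGANTCA (the AP-1 site) and to TATAAA. They lie at chr6:31575315-31575564 on the plus strand for TNF, at chr1:7940840-7941089 on the minus strand for TNFRSF9 and at chr6:31582426-31582675 on the minus strand for LTB.
TNF: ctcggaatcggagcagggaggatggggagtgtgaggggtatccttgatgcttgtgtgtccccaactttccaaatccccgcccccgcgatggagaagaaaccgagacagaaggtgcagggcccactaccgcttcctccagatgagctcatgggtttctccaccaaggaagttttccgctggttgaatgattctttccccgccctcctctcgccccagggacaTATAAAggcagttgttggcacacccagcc
TNFRSF9: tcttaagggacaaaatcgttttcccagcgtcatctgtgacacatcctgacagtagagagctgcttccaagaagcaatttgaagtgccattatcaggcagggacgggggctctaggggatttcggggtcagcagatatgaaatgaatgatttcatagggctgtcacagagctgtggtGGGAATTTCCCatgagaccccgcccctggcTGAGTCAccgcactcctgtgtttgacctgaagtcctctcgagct
LTB: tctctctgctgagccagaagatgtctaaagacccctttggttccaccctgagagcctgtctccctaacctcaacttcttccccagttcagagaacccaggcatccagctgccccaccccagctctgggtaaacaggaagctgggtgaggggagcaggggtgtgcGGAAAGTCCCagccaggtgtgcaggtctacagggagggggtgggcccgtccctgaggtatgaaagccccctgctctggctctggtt
The TNFRSF9 stretch held the NF-kB consensus on both strands, in matches that overlap each other 64 to 74 bases before the start, and TGANTCA 38 to 44 bases before it. The LTB stretch held 1 NF-kB match, on the minus strand, 77 to 86 bases before the start, and the TNF stretch held TATAAA 24 to 29 bases before it. Among all 35116 promoters of the same length in the table, 9.96% held the NF-kB consensus, 6.57% TGANTCA and 10.7% TATAAA. These are matches of letters and not measured binding.

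At 3 h after SM30 NPs, TNF on its single-spot probe and the receptor TNFRSF9 were up-regulated, 3.50-fold and 3.51-fold. These were 2 of the 11 member probes tested. The 10-spot TNF probe gave a log2 response of 0.06 (limma, adjusted p of 0.865). On the single-spot TNF probe 1 of the 3 controls of SM30 was well above background. The background was 7.49% of all 28664 probes called, 4.35% higher and 3.13% lower. After AS30 NPs at 3 h TNFRSF9 was called, 1 of 11 member probes against 2.52% of all probes (1.5% higher and 1.01% lower). After AS30 NPs at 22 h, 0 of 10 were called by limma against 3.58% of all probes (2.54% higher and 1.04% lower). Of these 10, 3 had an unadjusted p under 0.05 (TNFRSF1A on 10 spots, TNFRSF9 and TNFRSF12A), against 6452 of all 28155 probes. In RNA from a whole culture, fewer cells with a transcript and less of it per cell cannot be told apart.

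TNF, the founding ligand, gave different values on its probes. On the single-spot probe, the controls of SM30 had 3.72, 4.38 and 4.47 (arrays A, B and C) and the SM30-treated cells had 5.76, 6.03 and 6.21. All 3 treated arrays were above all 3 controls, and all 3 were well above background, against 1 of the 3 controls. The response was 1.81 (SE 0.15, 95% confidence interval 1.43 to 2.19), a 3.50-fold rise with an adjusted p of 0.00507. With slide in the model, in which the value comes from the slide that held treated array A and all 3 controls, it was 1.57 (SE 0.34) with an adjusted p of 0.0659, and with dim spots kept in place of set missing the adjusted p was 0.0842. With normexp background correction, which adds an offset of 50 to every spot, the response was 0.27 (SE 0.05, adjusted p of 0.0452).

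In the AS30 set at 3 h the single-spot TNF probe had 4.58 and 4.68 in controls A and B, with no value in C, and 4.81, 5.31 and 5.60 in the treated cells. The treated arrays were all well above background and 0 of the controls were, so no fold is given. The fit rested on 2 ratios and gave an adjusted p of 0.227. At 22 h no control had a value, and the treated arrays had 3.51 (A) and 3.64 (C), neither well above background, so that no ratio was available. The response to SM30 NPs was not shown to differ from that to AS30 NPs on this probe (adjusted p of 0.206).

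On the 10-spot TNF probe, the controls of SM30 had 4.22, 4.10 and 4.30 and the treated cells 4.36, 4.23 and 4.21, and the groups overlapped. The response was 0.06 (SE 0.16, interval -0.32 to 0.43), with an adjusted p of 0.865, so the interval did not reach the size seen on the other probe. Across the AS30 sets it read 4.27, 4.75 and 4.95 in controls and 4.59, 4.71 and 4.53 in treated cells at 3 h. The value of control C there rests on at most 2 of 10 spots, those marked positive. With every spot kept that control had 3.58, and the means at 3 h were 4.145 in controls and 4.635 in treated cells. At 22 h the probe read 4.25, 3.74 (on at most 3 of 10 spots) and 3.67 in controls and 4.05, 4.07 and 3.94 in treated cells. It was well above background on 6 of the 18 arrays, 5 of them in the SM30 set, and the single-spot probe was so on 7. In untreated cells of the AS30 sets, limma called the 10-spot probe lower at 22 h than at 3 h (adjusted p of 0.0416). That comparison was added after the values were seen. In those groups 0 arrays were well above background on this probe, so no size is given. The 10 spots of 1 array differed among themselves by a median SD of 0.43. The test of whether the probes differ in response was not run, and both are annotated to the same TNF transcript.

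**Figure D1:**
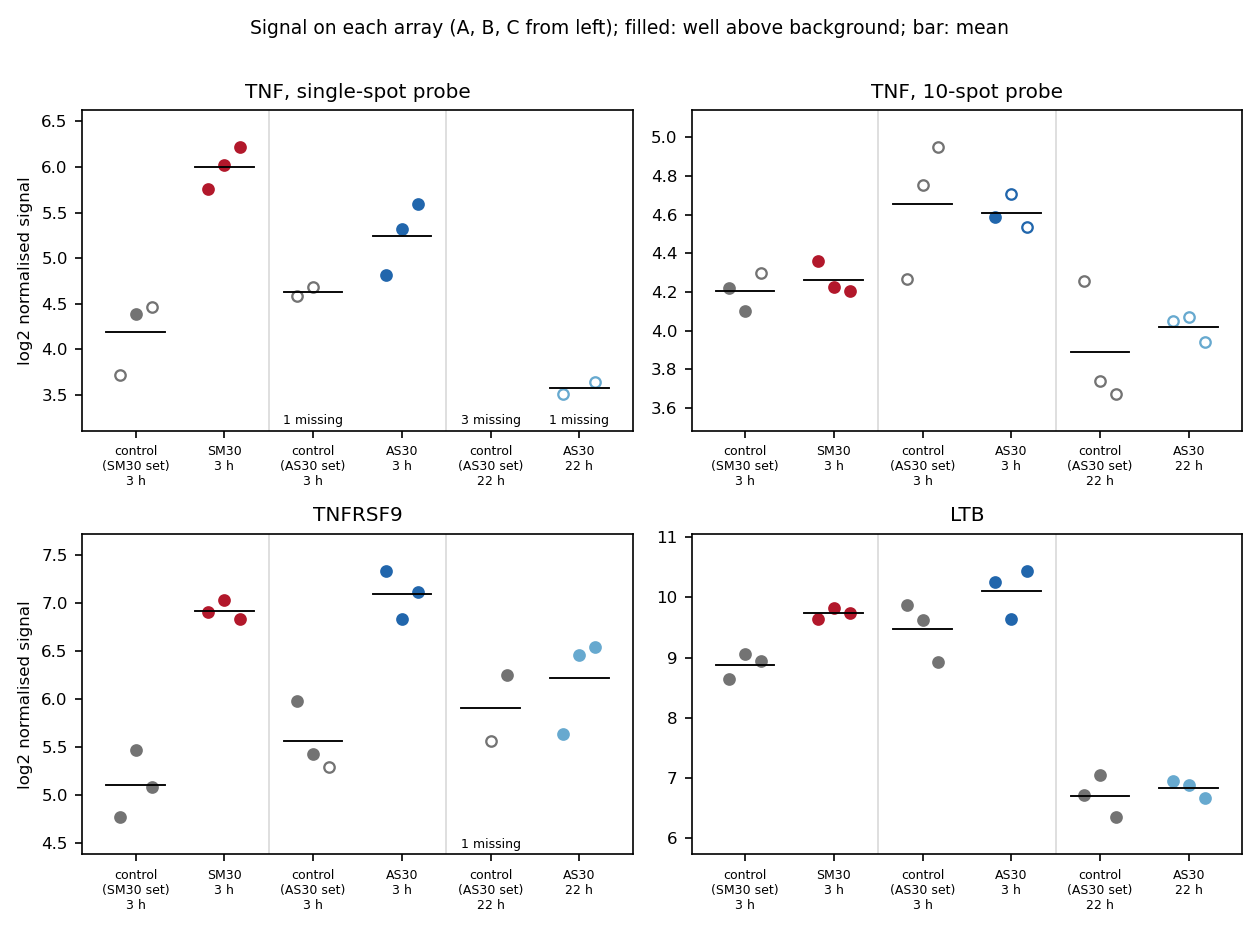
Log2 normalised signal (vertical axes) of the TNF single-spot probe, the TNF 10-spot probe, TNFRSF9 and LTB on each of the 18 arrays, by group. Points are arrays A, B and C from left to right, filled where the probe was well above background, bars are group means, and missing values are counted at the foot. The SM30-treated arrays sit above their controls for TNF on 1 spot and for TNFRSF9 and LTB, but not for TNF on 10 spots, and LTB sits at 7.06 or lower in both 22 h groups.

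TNFRSF9, the receptor of TNFSF9, was called higher after both NPs at 3 h. For AS30 NPs the treated and control arrays were on different slides, so particle and slide cannot be told apart there. Its controls had 4.77, 5.47 and 5.09 in the SM30 set, and the SM30-treated cells had 6.90, 7.03 and 6.83. In the AS30 set at 3 h the controls had 5.97, 5.42 and 5.29 and the treated cells 7.33, 6.83 and 7.11. In both sets every treated array was above every control, and 5 of these 6 controls were well above background. The response to SM30 NPs was 1.81 (SE 0.18), 3.51-fold, with an adjusted p of 0.00278, and that to AS30 NPs was 1.53 (SE 0.18), 2.88-fold, with an adjusted p of 0.013.

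The responses of TNFRSF9 to SM30 and AS30 NPs differed by 0.29 (SE 0.25, interval -0.29 to 0.87), which was not called (adjusted p of 0.617). At 22 h the controls had no value in A and 5.56 and 6.25 in B and C, of which C was well above background, and the AS30-treated cells had 5.64, 6.46 and 6.54. The groups overlapped, and the response, over 2 ratios, was 0.59 (SE 0.21) with an adjusted p of 0.159. It was 0.93 smaller at 22 h than at 3 h on the log2 scale (difference -0.93, SE 0.28), with an adjusted p of 0.193. On the slide that held AS30-treated arrays A, B and C at 22 h and control C, the treated mean was 6.21 and the control 6.25, a difference of -0.038.

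With slide in the model the TNFRSF9 response to SM30 NPs was 1.79 (SE 0.38) and its adjusted p 0.052. The response to AS30 NPs at 3 h could not be estimated in that model, since no slide held both its groups and an array linking the slides had no value. Without pair B of AS30 at 3 h the adjusted p of that response was 0.0626, with a value of 1.59. With dim spots kept its adjusted p was 0.112. Under normexp with its offset, the responses to SM30 and AS30 NPs at 3 h were 0.36 (SE 0.05, adjusted p of 0.00756) and 0.28 (SE 0.05, adjusted p of 0.0389). In the same set 62.6% to 67.1% of spots were well above background on the treated arrays and 52.4% to 61.9% on the controls, and the part of this difference in the response was not tested.

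LTB, the membrane anchor of lymphotoxin, was far lower in untreated cells at 22 h than at 3 h, and its responses to the NPs were not called. In the SM30 set its controls had 8.64, 9.06 and 8.95 and the treated cells 9.64, 9.83 and 9.73, and the groups did not overlap. The response was 0.86 (SE 0.25), 1.81-fold, with an adjusted p of 0.0754, which was not called. The call changed with the pairing by letter: with the arrays fitted as 6 groups the same value had an adjusted p of 0.0463. The spread is estimated from all 3 comparisons together, and the SM30 response was also called without pair C of AS30 at 3 h. In all, 5 of the 19 alternatives called it. In the AS30 set at 3 h the controls had 9.87, 9.62 and 8.93 and the treated cells 10.26, 9.64 and 10.44, which overlapped, and the response was 0.64 (SE 0.25, adjusted p of 0.166). The log2 ratios were 0.39, 0.023 and 1.51 in pairs A, B and C, and the response was 0.21 without pair C and 0.95 without pair B.

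At 22 h LTB had 6.72, 7.06 and 6.35 in the controls and 6.96, 6.88 and 6.67 in AS30-treated cells, and the response was 0.13 (SE 0.25, adjusted p of 0.8). All 6 arrays of the AS30 set at 22 h were below all 6 at 3 h. Between the untreated groups the difference was -2.77 (SE 0.25), a 6.81-fold lower signal at 22 h with an adjusted p of 0.000248, in a limma comparison of the untreated groups that was added after the values were seen and that called 1.3% of all 28179 probes. On the slide that held all 3 untreated arrays of 3 h and 1 of 22 h, the 22 h array had 6.72 and the others 8.93 to 9.87. LTB was well above background on all 18 arrays. The control groups of the SM30 and AS30 sets at 3 h differed by -0.60 (SE 0.25, adjusted p of 0.0909), in a comparison that called 26.8% of all probes.

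TNFSF9, the ligand of TNFRSF9, was measured by overlapping probes at chr19:6485725-6485784 (A_23_P67224) and chr19:6485700-6485759 (A_24_P5856), which share 35 bases and so are not independent. On probe A_23_P67224 the SM30 set had 6.87, 7.06 and 6.90 in controls and 7.36, 7.28 and 7.26 in treated cells, which did not overlap. The AS30 set at 3 h had 6.87, 7.22 and 6.87 in controls and 7.73, 7.64 and 7.28 in treated cells, also without overlap. At 22 h it had 7.40, 7.83 and 7.50 in controls and 8.49, 7.42 and 8.34 in treated cells, of which B was within the range of the controls. The responses were 0.36, 0.56 and 0.51 (SE 0.26 each), with adjusted p-values of 0.423, 0.219 and 0.279, and none was called.

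Probe A_24_P5856 of TNFSF9 gave responses of 0.23, 0.34 and 0.48 (SE 0.23 each), also not called (adjusted p of 0.571, 0.383 and 0.254). Without pair B at 22 h, both probes of TNFSF9 were called at 22 h, at 0.96 (SE 0.16, adjusted p of 0.0256) and 0.86 (SE 0.17, adjusted p of 0.0405). All 18 arrays were well above background on both probes.

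The remaining ligands were at or near background. LTA, a soluble ligand of the TNF receptors, was well above background on 2 arrays. Its values in the SM30 set were 4.02, 3.98 and 4.16 in controls and 6.57, 2.89 and 3.45 in treated cells, so array A alone was high and the groups overlapped. The response was 0.25 (SE 0.70, adjusted p of 0.86), and without pair A it was -0.90. In the AS30 sets no array was well above background for LTA, and no ratio is given.

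TNFSF10 had 10 spots and was well above background on 0 of 18 arrays, with values between 2.85 and 5.41. The 2 probes of TNFSF15 had a value on 4 and 2 arrays, never well above background, and TNFRSF1B, the receptor best known from leukocytes, had one on 1 array. These 3 probes of 2 genes were not tested because over 33% of their values were missing. For TNFSF10, TNFSF15 and TNFRSF1B the data give no response in either direction.

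TNFRSF1A, the broadly carried TNF receptor, was well above background on all 18 arrays with both of its probes. On the 10-spot probe (chr12:6308325-6308384, minus strand) the SM30 set had 11.30, 11.26 and 11.21 in controls and 11.14, 11.22 and 11.02 in treated cells, which overlapped. The AS30 set had 11.15, 11.17 and 11.06 in controls and 10.60, 10.85 and 10.93 in treated cells at 3 h. At 22 h it had 11.87, 11.38 and 11.26 in controls and 10.85, 11.12 and 11.21 in treated cells. At both times every AS30-treated array was below every control. The responses were -0.13, -0.33 and -0.44 (SE 0.18 each), with adjusted p-values of 0.696, 0.29 and 0.192, and none was called. With slide in the model the value for AS30 NPs at 3 h turned to 0.16 (SE 0.25). At 22 h the ratios were -1.02, -0.26 and -0.048 in pairs A, B and C, and without pair A the response was -0.15 (SE 0.15).

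The other TNFRSF1A probe, annotated across a span of 215 bases at chr12:6308995-6309209, gave responses of -0.06, 0.03 and -0.06 (SE 0.12 each, adjusted p of 0.82, 0.901 and 0.805), and its groups overlapped in all 3 comparisons. In the untreated sets at 3 h, the SM30 controls minus the AS30 controls were 0.13 (SE 0.15, adjusted p of 0.544) on the first probe and -0.86 (SE 0.14, adjusted p of 0.00106) on the second, and the difference between the probes was not tested.

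TNFRSF12A, the TWEAK receptor, had 14.46, 14.68 and 14.67 in the SM30 controls and 14.48, 14.50 and 14.63 after SM30 NPs, which overlapped, a response of -0.07 (SE 0.10, adjusted p of 0.733). In the AS30 set at 3 h the controls had 15.06, 15.14 and 15.03 and the treated cells 14.86, 14.93 and 14.87. At 22 h the controls had 14.53, 14.69 and 14.63 and the treated cells 14.96, 14.86 and 15.01. The treated arrays were thus all below the controls at 3 h and all above them at 22 h. The responses were -0.19 (SE 0.10, adjusted p of 0.282) and 0.32 (SE 0.10, adjusted p of 0.114), and their difference was 0.52 (SE 0.15, interval 0.18 to 0.85), with an adjusted p of 0.172. None of these passed the threshold. In the untreated cells of the AS30 sets, 22 h minus 3 h was -0.46 (SE 0.09, adjusted p of 0.0294). The untreated sets at 3 h also differed, by -0.48 for SM30 minus AS30 controls (SE 0.09, adjusted p of 0.0029). The part of such differences between sets in the value for recovery time was not tested. With scaling to the 75th percentile in place of quantile normalisation, the response to AS30 NPs at 3 h turned to 0.016.

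**Figure D2:**
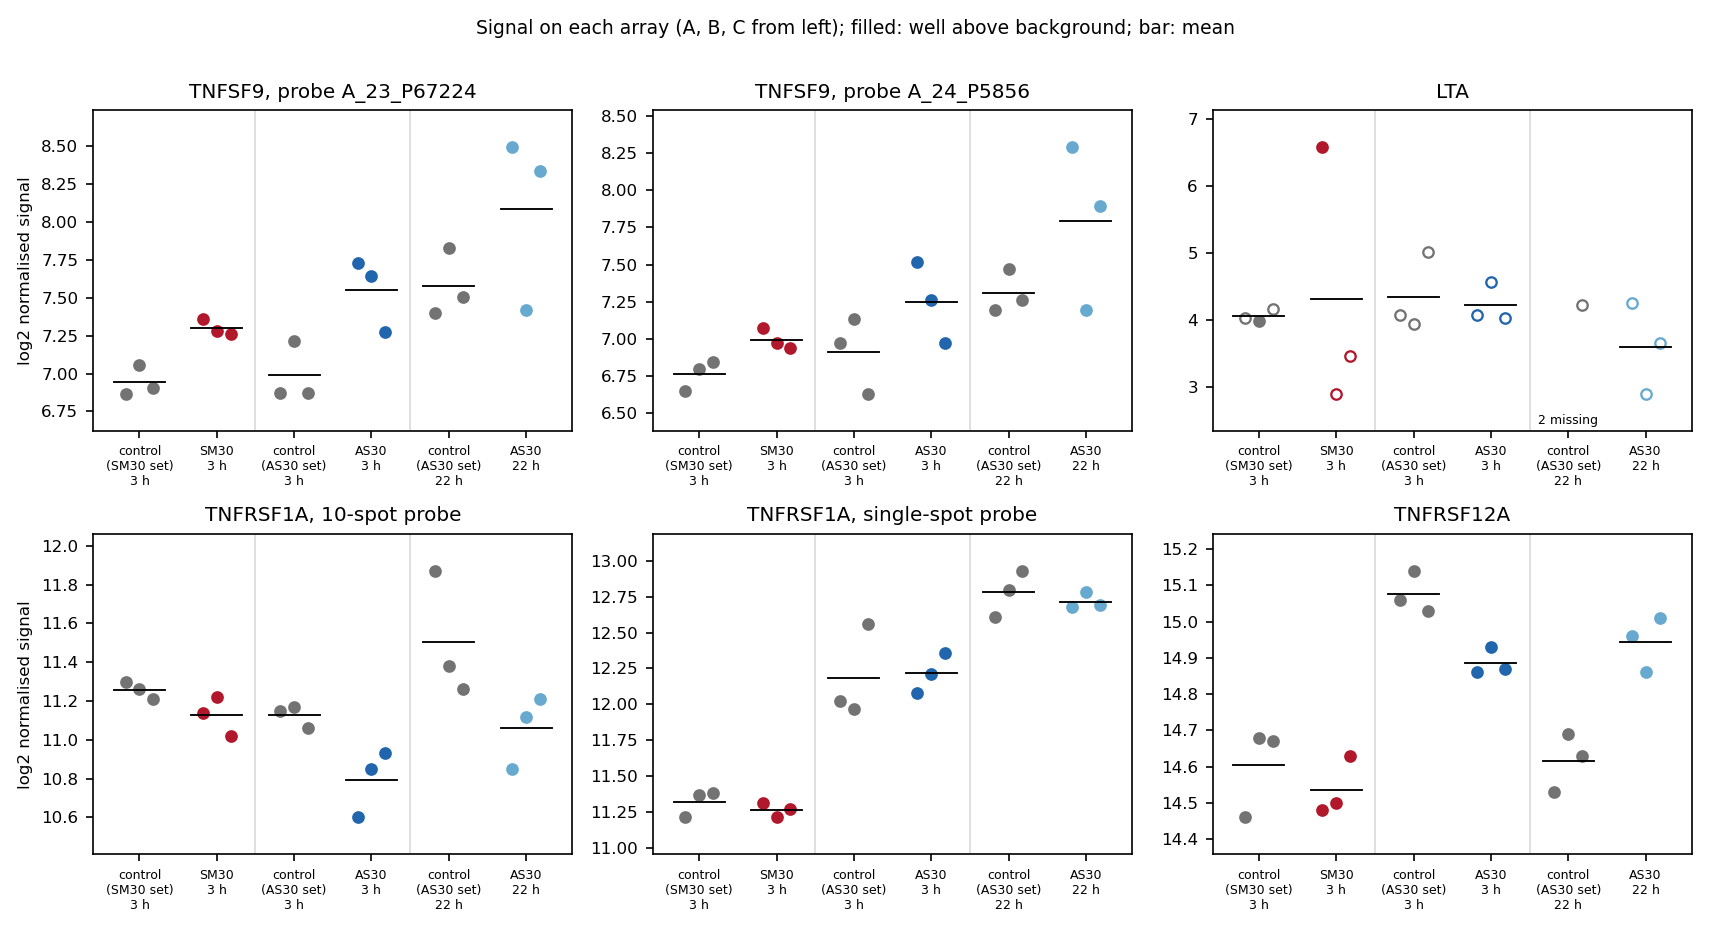
Log2 normalised signal (vertical axes) of the TNFSF9, LTA, TNFRSF1A and TNFRSF12A probes on each of the 18 arrays, by group. Points are arrays A, B and C from left to right, filled where the probe was well above background, and bars are group means. For TNFRSF12A the AS30-treated arrays lie below their controls at 3 h (14.86 to 14.93 against 15.03 to 15.14) and above them at 22 h (14.86 to 15.01 against 14.53 to 14.69).

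More member probes had treated and control arrays that did not overlap than had called responses. In the SM30 set 5 of the 11 kept probes had every treated array above every control (TNF on 1 spot, LTB, both TNFSF9 probes and TNFRSF9) and 0 had them below. Over all probes of that set these shares were 19.2% and 23.8%. In the AS30 set at 3 h, 2 of the 10 probes measured on all 6 arrays were above and 2 below, against 13.2% and 10.6% of all probes. At 22 h, 1 of 7 was above and 1 below, against 12.8% and 11.1%.

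The tests of differences between responses called no member probe. SM30 minus AS30 at 3 h called 0 of 11 with limma, against 0.014% of all probes. At an unadjusted p under 0.05 there was 1 (TNF on 1 spot), against 4176 of all 28595 probes. AS30 at 22 h minus 3 h called 0 of 10, against 0.0285%. Here 2 had an unadjusted p under 0.05 (TNFRSF9 and TNFRSF12A), against 4735 of all 28086 probes. The F-test of any difference among the 3 responses called 0 of 10, against 0.0855% of all probes. The same 2 genes had an unadjusted p under 0.05 in it, a level at which all probes were not counted for this test. The TNFRSF9 value was 0.145 and that of TNFRSF12A 0.186 after adjustment in the F-test.

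**Figure D3:**
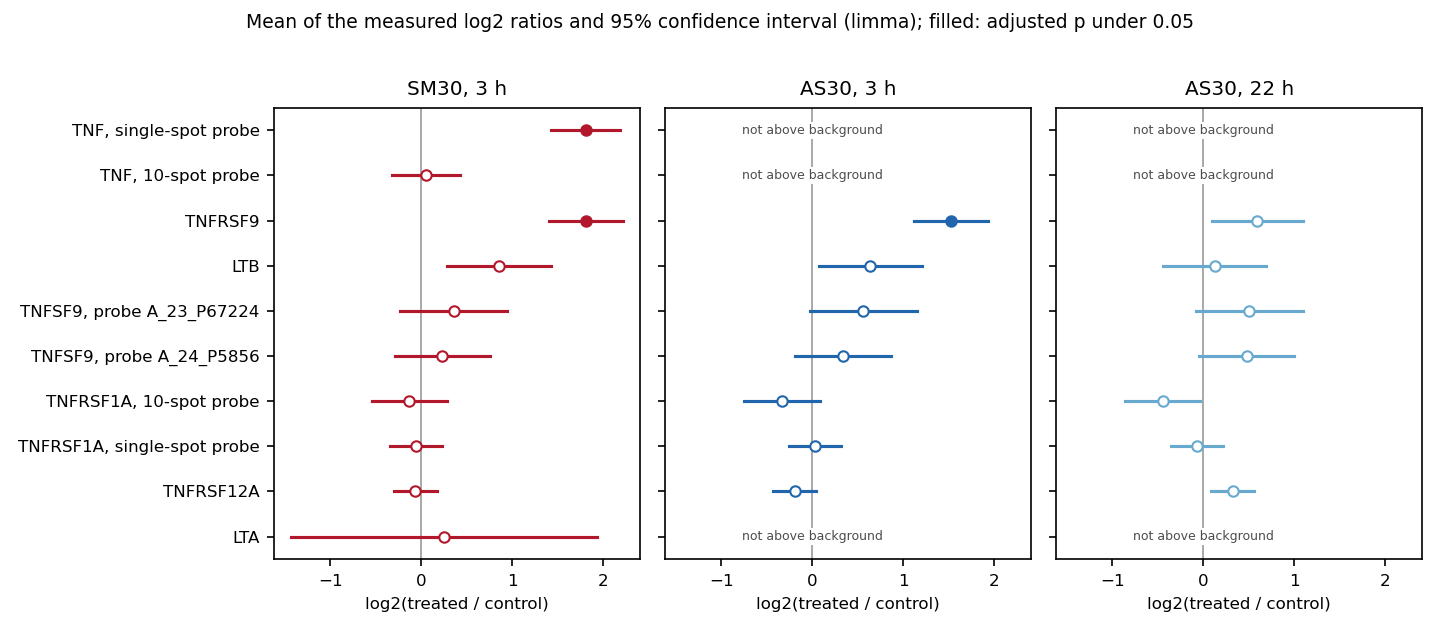
Response of each probe as log2 of treated over control (horizontal axes), as the mean of the measured ratios with its 95% confidence interval, after SM30 NPs at 3 h and AS30 NPs at 3 h and 22 h. Filled points passed an adjusted p of 0.05, and probes with no array well above background in a group are marked as such. The intervals of TNF on 1 spot (1.43 to 2.19) and TNFRSF9 (1.40 to 2.22) after SM30 NPs lie clear of 0, whereas that of TNF on 10 spots spans it.

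The wider pathway was described with 6 lists of genes outside the 10 members, at 1 probe per gene, 94 genes tested in all. Like the members, these lists were chosen with earlier results of these data known. Their counts are therefore a description and not a test of the pathway. After SM30 NPs 23 of them were called higher and 1 lower, against 4.24% and 3.42% of the 21232 genes on the same basis. After AS30 NPs 5 of 94 were called higher and 0 lower at 3 h (1.59% and 1.03% of all genes), and 4 of 92 higher and 1 lower at 22 h (2.71% and 1.13%). The median response of all genes was -0.07, 0.02 and -0.01 in the 3 comparisons.

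Of 21 genes known to be induced by TNF, 11 were called higher after SM30 NPs and 0 lower, and the median of the list was 0.94. CCL20, a chemokine for dendritic cells and lymphocytes, rose by 3.25 (SE 0.21, 9.51-fold, adjusted p of 0.00143) and ICAM1, an adhesion molecule for leukocytes, by 2.39 (SE 0.43, 5.24-fold, adjusted p of 0.0207), the largest called rises of the list. TNFAIP6, SOD2, CSF2, CXCL2, TNFAIP8, IER3, RELB, NFKB1 and MMP9 rose by between 0.71 and 2.27. After AS30 NPs at 3 h, 3 of 21 were called higher, CCL20 by 1.95 (SE 0.21), SOD2 by 1.47 (SE 0.29) and TNFAIP8 by 0.89 (SE 0.15), with a list median of 0.45. At 22 h, 1 of 20 was called higher, SOD2, a mitochondrial superoxide dismutase, by 1.58 (SE 0.29), with a median of 0.15.

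Of 12 feedback inhibitors and deubiquitinases of the pathway, 6 were called higher after SM30 NPs and 0 lower, with a median of 0.59. TNFAIP3 (A20), a ubiquitin-editing brake on NF-kB, rose by 1.72 (SE 0.38) and its partner TNIP1 by 1.03 (SE 0.19, over 2 ratios), and OPTN, TANK, NFKBIB and CYLD rose by between 0.53 and 0.78. After AS30 NPs 1 of 12 was called higher at each time, TANK by 0.51 (SE 0.11) at 3 h and OPTN by 1.08 (SE 0.16) at 22 h. The medians there were 0.38 and 0.24.

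Among 25 receptor-proximal adaptors and kinases, TRAF1, an adaptor that binds several of these receptors, rose by 2.23 (SE 0.13, adjusted p of 0.000295) after SM30 NPs and MAP3K14 (NIK), the kinase of the alternative NF-kB route, fell by 1.00 (SE 0.15). TRAF1 also rose after AS30 NPs at 3 h, by 0.88 (SE 0.13), where it was the 1 of 25 called. At 22 h TRADD rose by 0.54 (SE 0.10) and CFLAR (c-FLIP), an inhibitor of death receptor signaling, by 0.67 (SE 0.14). The median of this list was -0.01, 0.01 and 0.12 in the 3 comparisons.

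Of 20 other superfamily receptors, 4 were called higher after SM30 NPs and 0 lower, with a list median of 0.07. TNFRSF25 (DR3, the receptor of TNFSF15) rose by 1.66 (SE 0.24) and TNFRSF19 by 1.27 (SE 0.14), and the TRAIL receptors TNFRSF10A and TNFRSF10B by 0.78 (SE 0.14) and 0.64 (SE 0.12). After AS30 NPs limma called 0 of 20 at 3 h, with 8 at an unadjusted p under 0.05, against 6964 of all 28596 probes. At 22 h 1 of 19 was called lower, TNFRSF13C (the BAFF receptor), with 4.55 to 4.82 in treated cells. Only 1 control array had a value, 8.68, so this call rests on 1 ratio. Of 12 other ligands 6 could be tested and limma called 0 in each comparison, with 0, 1 and 1 at an unadjusted p under 0.05. Over all probes 7207 of 28664, 6964 of 28596 and 6452 of 28155 were under that level.

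Of 10 genes for TNF shedding and for the control of TNF mRNA, ZFP36 (tristetraprolin), which promotes decay of TNF mRNA, rose by 0.97 (SE 0.17) after SM30 NPs. After AS30 NPs limma called 0 of them at either time, with 3 at an unadjusted p under 0.05 at each. Over all probes 6964 of 28596 at 3 h and 6452 of 28155 at 22 h were under that level. The list counts depended on the arrays. Without pair A, B or C of SM30 in turn, 2 of the 21 TNF-induced genes were called in each case, 0 of the feedback inhibitors and 0, 0 and 1 of the other receptors, while the median of the TNF-induced genes stayed between 0.82 and 1.01. For AS30 NPs at 3 h the count of 3 TNF-induced genes became 1 without pair A and 0 without pair B, 0 with dim spots kept and 0 of the 17 that could be fitted with slide in the model, where the list median was 0.18. The 2 adaptors called at 22 h became 0 without any one of the 22 h pairs and 0 with scaling to the 75th percentile. None of the 94 genes was called by limma in the test of SM30 minus AS30, nor of the 92 in that of 22 h minus 3 h. At an unadjusted p under 0.05 there were 16 and 20, against 4176 of all 28595 and 4735 of all 28086 probes.

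**Figure D4:**
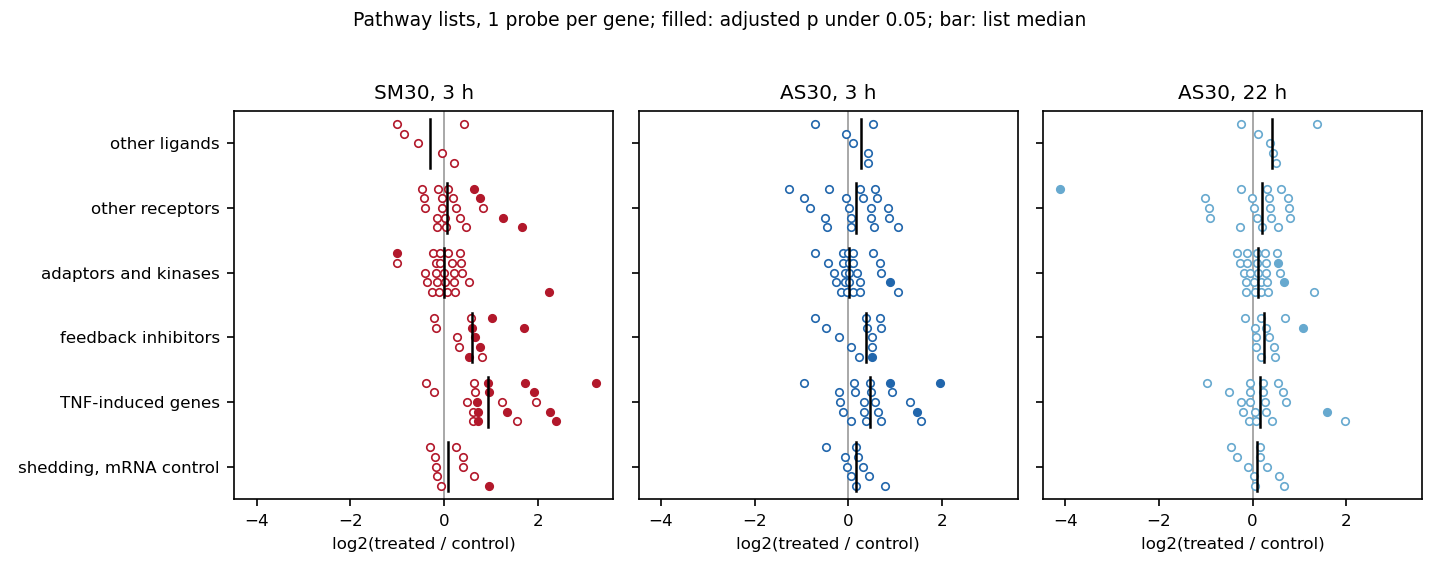
Log2 of treated over control (horizontal axes) for each gene of 6 pathway lists outside the 10 members, in the 3 comparisons. Points are genes, filled where the adjusted p was under 0.05, and bars are list medians. The lists were chosen with earlier results of these data known. After SM30 NPs the TNF-induced genes have a median of 0.94 and 11 of 21 called, against 0.45 and 3 of 21 after AS30 NPs at 3 h.

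No member probe with a called response had all 9 ratios, so the genes most like TNF and TNFRSF9 were sought over the ratios that each had, by the root mean square (RMS) difference of the ratios, a choice made after the values were seen. For TNF on 1 spot, over 5 ratios and 26570 probes, they were CXCL8 (RMS difference 0.22), a neutrophil chemokine, TNFAIP3 (0.22) and PTGS2 (0.26), the inducible cyclooxygenase. For TNFRSF9, over 8 ratios and 23442 probes, they were PNRC1 (0.30), HBP1 (0.32) and BBC3 (0.34). These compare ratios that share control arrays between genes and are a description.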

How the data were processed

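The 18 arrays were one-color Agilent scanner files. Per the file headers the authors extracted spots with Feature Extraction 10.5.1.1, and the deposited intensity used here was the background-subtracted, processed signal of each of 45015 spots, with flags (marks of 0 or 1) for outlier spots and for spots above background. The authors also deposited intensities that were quantile normalised and averaged over spots, used here on the log2 scale as an alternative. Groups were taken from the sample labels, 3 arrays each, and 0 columns of per-sample values were left unused. The number of arrays limits the precision.

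After removal of control spots, intensities were log2 transformed and quantile normalised. Outlier spots and spots not marked as positive and significant were then set missing, and spots of a probe were averaged. Probes with over 33% missing values were left out, which kept 28665 of 41000 probes. Following the methods of the study, treated signals were set over those of the control with the same letter, and the 9 log2 ratios were fitted as 3 classes with limma 3.58.1 in R 4.3.3 (with statmod 1.5.0), with Benjamini-Hochberg adjustment over all kept probes. The same-letter correlation of deviations from the group means was -0.09 to 0.48 over 23030 probes. The fit was tested on simulated data. Alternatives varied scaling, background correction, filters, outlier spots, source table, pairing, slide and each pair of arrays.

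Every probe of the 10 genes was reported. Of the pathway lists, the called genes with the 2 largest rises and falls were to be named, and other called genes were named after their values were seen. Members and lists were chosen with earlier results of these data known. Lists used the probe of highest mean signal per gene, and 1 leukocyte marker is not reported here.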

Additional observations from a re-analysis of the deposited data

How the results depend on the processing

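Of the alternatives to each fit, 9 left out a pair of arrays and 10 changed another choice. Calls of member probes after SM30 NPs numbered 2. They became 1 with dim spots kept (TNFRSF9), 1 with probes well above background on all 18 arrays (LTB, 0.86, adjusted p of 0.0476) and 1 with slide as a fixed block (LTA, 2.52, from array A), and ran from 2 to 3 when pairs were left out. After AS30 NPs at 3 h the count of 1 became 0 with dim spots kept and 0 with probes well above background on all 18 arrays (TNFRSF9 is not among them). With slide as a fixed block it was 0 of the 8 member probes that could be fitted, and TNFRSF9 was not among those either. The count became 4 against the mean of the 3 controls, and ran from 0 to 1 when pairs were left out. After AS30 NPs at 22 h the count of 0 became 2 against the mean of the controls (TNFRSF1A on 10 spots and TNFRSF12A), 1 with slide as a random block (TNFRSF12A), and ran from 0 to 2 when pairs were left out. Against the mean of the controls the count for SM30 minus AS30 became 1 (the single-spot probe of TNF), that for 22 h minus 3 h became 2 and that of the F-test 3. That ratio leaves out the spread of the controls and called 9459 of 28665 probes after SM30 NPs. The filter on probes well above background kept 6 member probes in place of 11.

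Without the replicate block, the arrays fitted as 6 groups called 3 member probes after SM30 NPs (LTB added, adjusted p of 0.0463), 1 after AS30 NPs at 3 h and 0 at 22 h. The letters are not stated to mark a shared culture or day. The same-letter correlations in pairs A, B and C were 0.088, -0.004 and -0.013 for SM30. They were 0.48, -0.09 and 0.08 for AS30 at 3 h, and 0.11, 0.10 and 0.19 at 22 h.

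Directions turned in 13 cases, none of a called value, and the cause was not tested. LTA after SM30 NPs was -0.0040 with slide as a random block and ran from -0.90 without pair A to 0.92 without pair B. With slide as a fixed block LTB was 0.19 for 22 h minus 3 h, TNFRSF1A after AS30 NPs at 3 h was 0.16 on 10 spots and -0.16 on its other probe, and TNFRSF9 was -0.038 at 22 h. The other TNFRSF1A probe was -0.024 after AS30 NPs at 3 h and 0.065 after SM30 NPs with normexp. With pairs left out it ran from -0.074 (without pair B) to 0.15 (without pair C) at 3 h and from -0.13 (without pair A) to 0.023 (without pair C) at 22 h. TNFRSF12A with 75th percentile scaling was 0.016 after AS30 NPs at 3 h and -0.035 for SM30 minus AS30. LTB for SM30 minus AS30 ran from -0.095 to 0.65 without pair B and pair C of AS30 at 3 h. Of the values of called responses under the alternatives, 48 stayed called in the same direction and 5 kept the direction only. The size ran from 0.27 to 1.89 for the single-spot probe of TNF and 0.36 to 1.94 for TNFRSF9 after SM30 NPs. For TNFRSF9 after AS30 NPs at 3 h it ran from 0.28 to 1.61. The lowest in each case was under normexp with its offset of 50.

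The number of probes called over the array also moved. After SM30 NPs it was 2146, 289 to 567 without a SM30 pair, 333 with slide as a fixed block and 1292 with dim spots kept. After AS30 NPs at 3 h it was 720, 81 without pair B and 3060 without pair C, 274 with dim spots kept and 52 with the slide block. At 22 h it was 1008, 2 without pair A, 184 without pair C, 508 with dim spots kept and 29 with the slide block. Low signal limited TNF, LTA, TNFSF10, TNFSF15 and TNFRSF1B, whose probes were well above background on at most 7 of 18 arrays.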
